A study of Drosophila melanogaster with 4 samples.

Results

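Insect blood, the hemolymph, seals wounds with a clot and darkens it with melanin. The 8 genes described here encode proteins of the hemolymph and its cells and were chosen by name, from 17846 fly genes with a nuclear transcript entry in the count files. They are fon and Hml, which encode clot proteins, PPO1 and PPO2, which encode the prophenoloxidases that make melanin precursors, and Idgf2, Idgf3, Idgf4 and Idgf6, which encode imaginal disc growth factors. Imaginal disc growth factors are secreted relatives of chitinases that have lost the enzyme activity. The fat body and the blood cells, or hemocytes, are the main sources of these proteins. Plasmatocytes, the phagocytic hemocytes, make hemolectin, and crystal cells store both prophenoloxidases.

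The reads came from mitoribosome profiling of Drosophila melanogaster third-instar larvae at 4 days after egg laying. Control larvae (Angel+/+, wDah) were compared with DmAngel KO larvae (Angel-/-), which lack the mitochondrial RNA phosphatase DmANGEL, in 2 libraries each. The knockout was made with CRISPR/Cas9 and backcrossed to a white background, and only the KO-1 line was sequenced. Crude mitochondria of whole larvae were lysed and treated with RNase T1, and RNA of the pooled monosome fractions was sequenced. The deleted gene, angel, was nearly unread, with 2 and 0 reads in control against 1 and 1 in DmAngel KO, too few to check the labels. Nuclear transcripts held 1324943 and 457054 reads in control replicates 1 and 2, and 566679 and 518033 in DmAngel KO replicates 1 and 2. This was 31.9% and 25.5% of all reads in control against 6.93% and 6.30% in DmAngel KO. Whether the reads on these nuclear transcripts are footprints of cytosolic ribosomes was not tested. Because the tissue was whole larvae, fewer cells of a type and less RNA per cell cannot be told apart. The reads are of monosome RNA from crude mitochondria, so RNA level, ribosome binding and carry-over into the preparation cannot be told apart either.

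Levels are given as RPM, the reads of a gene per 1000000 reads on nuclear transcripts. In the fit, these totals were rescaled by TMM factors, which set the typical gene to no change, because a few abundant fat body transcripts differed strongly between the conditions. The 6 fat body markers Lsp1alpha, Lsp1beta, Lsp1gamma, Lsp2, Fbp1 and Fbp2, which encode larval serum and fat body proteins, held 31.2% and 16.5% of the nuclear reads in control against 3.70% and 2.33% in DmAngel KO. All 6 fell, with log2 fold changes between -9.82 and -3.20, the lowest of which, that of Lsp2, rests on 3 and 0 reads in DmAngel KO. Without TMM factors the median log2 fold change of all 3003 genes tested was 0.70, and with them it was 0.01. All 8 genes passed the filter on low counts.

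The 8 genes together took 2.15% and 2.12% of the nuclear reads in control against 1.56% and 1.37% in DmAngel KO. Most of these reads lay on fon, with 76.7% and 79.2% of them in control against 72.1% and 67.2% in DmAngel KO. In the edgeR fit, 1 of the 8 genes, Idgf6, was called lower in DmAngel KO at an adjusted p under 0.05, and 0 were called higher. Over all genes tested, 6.99% were called lower and 4.16% higher. At an unadjusted p under 0.05, 2 of the 8 were lower (fon and Idgf6) and 0 higher, beside 455 lower (15.2%) and 378 higher of the 3003 genes. DESeq2 called the same 2 genes lower and 0 higher, beside 175 lower and 70 higher of the 3003 genes. The fitted log2 fold changes of all 8 were below 0, with a median of -0.62, against 0.01 over all genes, of which 1516 of 3003 were above 0. With the total of nuclear reads and no TMM factors, 5 of the 8 were above 0 (Hml, PPO1, PPO2, Idgf3 and Idgf4), although all 8 still lay below the median of all genes.

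**Figure D1:**
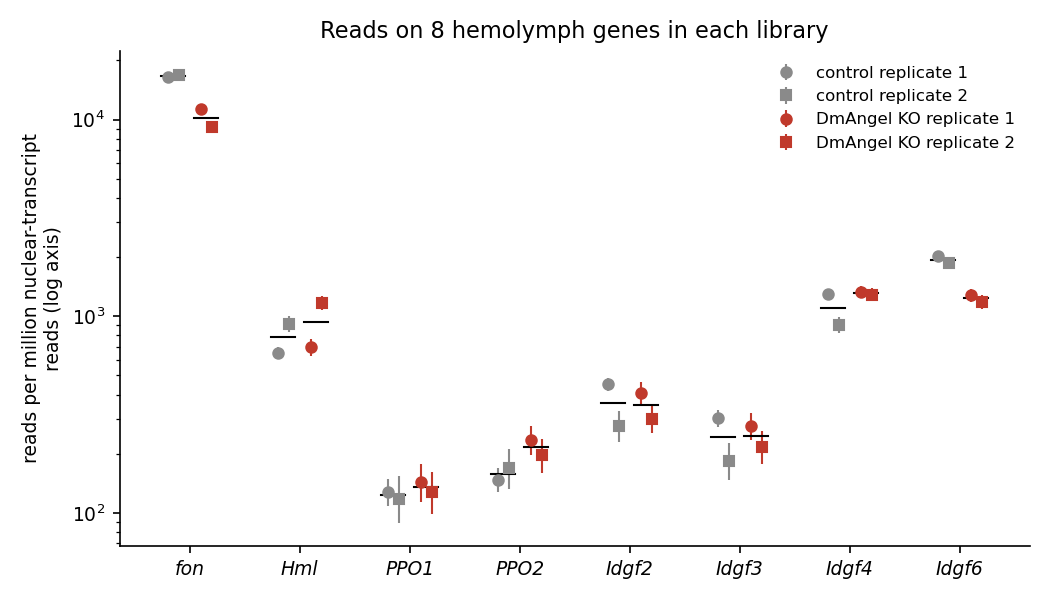
Reads per 1000000 reads on nuclear transcripts (RPM, log axis) of each gene in each library; grey points are control, red points DmAngel KO, circles replicate 1, squares replicate 2, vertical lines 95% Poisson intervals and black bars group means. The libraries of both conditions lie apart, with DmAngel KO lower, for fon and Idgf6, as for 10.4% of all genes tested. PPO2 is the only gene shown with both DmAngel KO libraries higher, which held for 57% of all genes tested.

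Fondue, the product of fon, is a fat body protein that is cross-linked into the clot. The gene lies on chromosome 2L from 19383138 to 19386205, minus strand, in BDGP6.54. It was among the most read of all nuclear genes, between the 8th and the 12th place in the 4 libraries. There were 21815 and 7684 reads on fon in control against 6387 and 4756 in DmAngel KO. These are 16465 and 16812 RPM in control against 11271 and 9181 RPM in DmAngel KO. Both knockout libraries were below both controls, and the controls were nearly equal. In RPM, 10.4% of all genes tested had both DmAngel KO libraries below both controls and 57% had them above. The log2 fold change of fon was -1.39 (standard error 0.47, 95% interval -2.40 to -0.38), with an adjusted p of 0.0736 in edgeR, which missed the threshold. DESeq2 gave an adjusted p of 0.00211, so the call on fon depended on the test. In edgeR, leaving out control replicate 2 gave a call (-1.5, adjusted p = 0.0319). Leaving out control replicate 1 (adjusted p = 0.0691), DmAngel KO replicate 1 (adjusted p = 0.329) or DmAngel KO replicate 2 (adjusted p = 0.444, edgeR) did not, nor did the fit without TMM factors (-0.70, adjusted p = 0.28, edgeR). With the replicate number as a block edgeR called fon (adjusted p = 2.12e-06), but the sources do not say that this number marks a shared preparation. The 6 fat body markers moved much further in the same direction, but they may not stand for the fat body as a whole. There were 52.7 and 102 reads on fon for every 1000 reads on these 6 markers in control against 305 and 393 in DmAngel KO. Their part in the value of fon was not tested.

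Hemolectin, encoded by Hml, is a very large clotting protein of plasmatocytes. The gene spans 13846054 to 13860001 on chromosome 3L, plus strand, and its 2 annotated transcripts have coding lengths of 11529 and 11532 bases. The Hml reads were 866 and 419 in control against 394 and 604 in DmAngel KO. In RPM this was 654 and 917 in control against 695 and 1166 in DmAngel KO. The conditions overlapped, and in both of them replicate 2 was the higher library. The log2 fold change of Hml was -0.41 (standard error 0.40, 95% interval -1.28 to 0.45, adjusted p = 0.54, edgeR). This interval leaves room for a decrease of more than 1 on the log2 scale. The 8 other plasmatocyte markers summed to 451 and 558 RPM in control against 445 and 589 in DmAngel KO. The higher sum in control replicate 2 came from eater, a phagocytic receptor gene, at 87.6 and 280 RPM in the control libraries, and the other 7 markers were all lower there. Without eater, a choice made after seeing the data, the sums were 364 and 278 RPM in control against 355 and 405 in DmAngel KO. For each read on the 8 markers there were 1.45 and 1.64 reads on Hml in control against 1.56 and 1.98 in DmAngel KO. Without eater these numbers were 1.80 and 3.30 in control against 1.96 and 2.88 in DmAngel KO, and the conditions overlapped in both forms.

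Within a library, the number of fon reads for each Hml read does not depend on the library size. It was 25.2 and 18.3 in control against 16.2 and 7.87 in DmAngel KO. Both knockout libraries were lower, with a log2 difference of -0.93, although the DmAngel KO replicates lay further apart than the means of the conditions. An exact permutation test over 2 libraries against 2 cannot give a two-sided p below 0.333, which is the value here (p = 0.333).

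PPO1 and PPO2 encode prophenoloxidases, which proteolytic cleavage turns into the enzymes that oxidise phenols to quinones. PPO1 is on chromosome 2R from 17887220 to 17889973, and PPO2 on 2R from 9042261 to 9044709, both on the minus strand and with a single annotated transcript. They had the fewest RPM of the 8 genes. PPO1 had 169 and 54 reads in control against 81 and 66 in DmAngel KO, or 128 and 118 RPM against 143 and 127 RPM. These libraries overlapped, and their Poisson intervals, which reached from 88.8 to 178 RPM, overlapped throughout. PPO2 had 195 and 77 reads in control against 133 and 102 in DmAngel KO. Its RPM were 147 and 168 in control against 235 and 197 in DmAngel KO, with both knockout libraries above both controls. In RPM this held for 57% of all genes tested. After TMM scaling 7 of the 8 genes, all but Hml, had both DmAngel KO libraries below both controls, which held for 27.9% of all genes tested, and 0 had them above, which held for 29.1%. The order of PPO2 was thereby turned, with 188 and 212 scaled RPM in control against 175 and 164 in DmAngel KO. The log2 fold change was -0.55 (95% interval -1.27 to 0.17, adjusted p = 0.301, edgeR) for PPO1. For PPO2 it was -0.23 (95% interval -0.95 to 0.49, adjusted p = 0.697, edgeR), and 0.46 without TMM factors. A direction of PPO2 was therefore not shown by these libraries.

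The number of PPO1 reads for each PPO2 read was 0.867 and 0.701 in control against 0.609 and 0.647 in DmAngel KO. Both knockout ratios were lower than both control ratios, with a log2 difference of -0.31 (p = 0.333, two-sided exact permutation test). The gap between the nearest libraries of the 2 conditions was smaller than that between the control replicates. The prophenoloxidases are paralogs, and how the authors counted reads that fit both is not given in the sources used here.

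The 4 imaginal disc growth factor genes together had 5396 and 1474 reads in control against 1868 and 1548 in DmAngel KO. This was 4073 and 3225 RPM in control against 3296 and 2988 RPM in DmAngel KO, and the conditions overlapped. Only Idgf6 of the 4 was called in the fit. As with the prophenoloxidases, reads that the paralogs share make the values of single members uncertain.

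Idgf6, on chromosome 2R from 16691022 to 16693751, plus strand, encodes a chitinase-like protein secreted into the hemolymph. It had 2676 and 851 reads in control against 725 and 613 in DmAngel KO. Its RPM were 2020 and 1862 in control against 1279 and 1183 in DmAngel KO, with close replicates and both knockout libraries lower. The log2 fold change was -1.34 (standard error 0.37, 95% interval -2.14 to -0.54, adjusted p = 0.0345, edgeR). The fitted level in DmAngel KO was 0.395 of that in control. DESeq2 gave an adjusted p of 0.00442. The call was lost without DmAngel KO replicate 1 (-1.46), without DmAngel KO replicate 2 (-1.44) and without TMM factors (-0.66, adjusted p = 0.215, edgeR). In these 3 fits the log2 fold change of Idgf6 minus the median of all genes was still -1.45 to -1.36. It was -1.37 before that subtraction without control replicate 1, and -1.52 without control replicate 2. A fit without a library leaves a single library in its group. With rRNA entries left out the call was kept (-1.35, adjusted p = 0.0290, edgeR). The call was also lost with every gene that had a read (adjusted p = 0.0896), with genes of a mean of at least 50 reads (adjusted p = 0.0521) and for its most read transcript entry in a fit of single entries (adjusted p = 0.0823), all in edgeR.

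Idgf4 lies on the X chromosome from 9927973 to 9930948, minus strand. Its reads were 1721 and 413 in control against 755 and 667 in DmAngel KO, or 1299 and 904 RPM against 1332 and 1288 RPM. In RPM, control replicate 2 was the only low library, and the other 3 were close together. After TMM scaling the values were 1659 and 1136 RPM in control against 996 and 1073 in DmAngel KO, with control replicate 1 the highest. The log2 fold change of Idgf4 was -0.44 (standard error 0.37, 95% interval -1.23 to 0.36, adjusted p = 0.476, edgeR), and 0.25 without TMM factors. Idgf2 and Idgf3 are neighbours on chromosome 2L, plus strand. Idgf1 ends 536 bases before Idgf2, which spans 16447330 to 16450508. Idgf3 starts 398 bases after it and spans 16450907 to 16455194. The Idgf2 reads were 597 and 126 in control against 231 and 156 in DmAngel KO, which is 451 and 276 RPM against 408 and 301 RPM. Idgf3 had 402 and 84 reads in control against 157 and 112 in DmAngel KO, which is 303 and 184 RPM against 277 and 216 RPM. For both genes the knockout libraries lay between the 2 controls in RPM, so the control replicates were further apart than the conditions. The log2 fold changes were -0.74 for Idgf2 (95% interval -1.53 to 0.06, adjusted p = 0.211, edgeR) and -0.69 for Idgf3 (95% interval -1.47 to 0.10, adjusted p = 0.235, edgeR). Without control replicate 2 they were -1.16 (adjusted p = 0.0197) and -1.11 (adjusted p = 0.0255, edgeR), so that library decided these calls. The number of Idgf2 reads for each Idgf3 read was nearly constant, at 1.49 and 1.5 in control against 1.47 and 1.39 in DmAngel KO. Both knockout ratios were below both control ratios even so, with a log2 difference of only -0.06 (p = 0.333, two-sided exact permutation test).

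Within the family, both DmAngel KO libraries had a lower share of Idgf6 and a higher share of Idgf4 than both controls. Idgf6 took 49.6% (95% Wilson interval 48.3 to 50.9) and 57.7% (55.2 to 60.2) of the reads on the 4 genes in control. In DmAngel KO its shares were 38.81% (36.6 to 41.0) and 39.6% (37.2 to 42.1). Idgf4 took 31.9% and 28.0% in control against 40.4% and 43.1% in DmAngel KO. A lower share of Idgf6 raises the shares of the other genes, and the fitted log2 fold change of Idgf4 itself was -0.44. Idgf2 held 8.55% to 12.4% and Idgf3 5.70% to 8.40% in the 4 libraries, with overlap between the conditions. Each interval rests on the reads of a single library and does not cover the spread between libraries. The paper describes no molecular identifiers, so reads copied from the same molecule may make the intervals too narrow. For every Idgf4 read there were 1.55 and 2.06 Idgf6 reads in control against 0.960 and 0.919 in DmAngel KO. This ratio, which was picked after its values were seen, was lower, with a log2 difference of -0.93 (p = 0.333, two-sided exact permutation test). Leaving out each library in turn gave -1.13 to -0.73. The planned ratio of Idgf6 to Idgf2 was 4.48 and 6.75 in control against 3.14 and 3.93 in DmAngel KO, again without overlap, and that of Idgf4 to Idgf2 overlapped. The number of fon reads for each Idgf6 read, also picked after the values were seen, was 8.15 and 9.03 in control against 8.81 and 7.76 in DmAngel KO. These overlapped, with a difference of -0.05 on the log2 scale, which restates the nearly equal fold changes of the 2 genes.

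**Figure D2:**
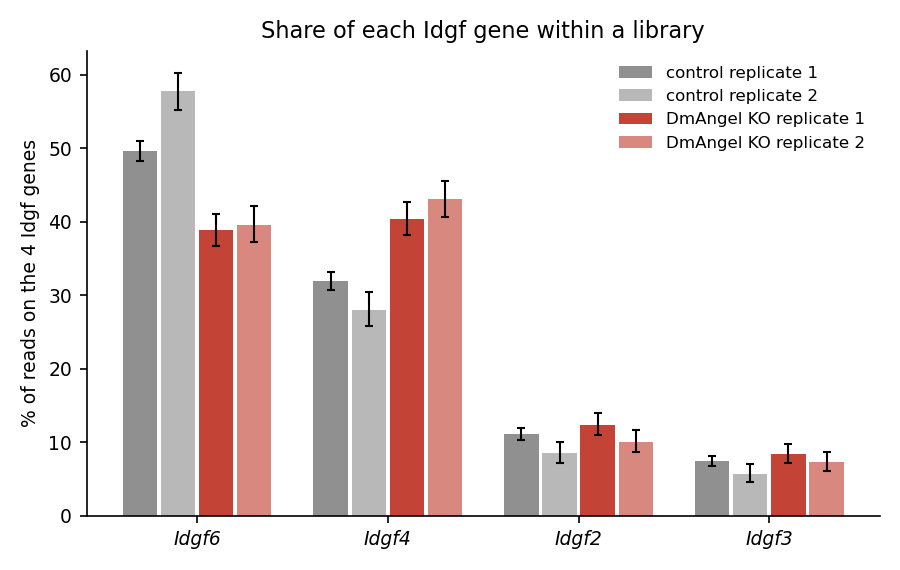
Share of each gene in the reads on the 4 Idgf genes, in percent, in each library (grey control, red DmAngel KO, the darker bar replicate 1); error bars are 95% Wilson intervals. Idgf6 is at 49.6% and 57.7% in control and at 38.81% and 39.6% in DmAngel KO, and the share of Idgf4 is higher there, at 40.4% and 43.1%. A lower share of Idgf6 raises the shares of the other genes.

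Levels of different genes were compared per kilobase of the mean annotated transcript. In control the order was fon (8208 ± 121 RPM per kb, SD, n = 2), Idgf6 (1158 ± 66.6), Idgf4 (680 ± 172), Idgf2 (237 ± 80.6), Idgf3 (94.4 ± 32.8), PPO2 (69.2 ± 6.60), Hml (66.8 ± 15.8) and PPO1 (52.5 ± 2.84). The libraries of Idgf3 and PPO2 overlapped, and so did those of PPO2 and Hml, so these neighbours did not differ beyond their spread. In DmAngel KO, Idgf4 (808 ± 19.5 RPM per kb, SD, n = 2) came before Idgf6 (735 ± 40.5), and fon was at 5045 ± 729. The last 4 genes kept their order there, from 95.6 ± 16.7 RPM per kb for Idgf3 to 57.8 ± 4.70 for PPO1, and each overlapped the next. Hml had more RPM than PPO1 or PPO2 in every library, but per kilobase its mean was between theirs, because its transcripts average 11755 bases. With the coding length in place of the transcript length the order was the same, and Idgf3 then stood clear of PPO2, at 184 ± 63.8 against 76.8 ± 7.33 RPM per coding kb in control.

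The counts of a gene were spread almost evenly over its annotated transcripts. How reads that fit several transcripts were divided is not given in the sources used here. The part of that division in these shares was not tested. The 4 fon transcripts held 24.6% to 25.2% of its reads over the 4 libraries. Their lengths range from 1916 to 2276 bases, mainly through 3′ UTRs of 121 to 472 bases. For Idgf3 the contrast in length is larger. Its 4 transcripts have the same coding length of 1326 bases, but 3′ UTRs of 193, 193, 1689 and 2345 bases, and held 22.4%, 23.2%, 27.6% and 26.9% of its reads. The longest one, Idgf3-RD, had 203 reads on 3801 bases, against 175 reads on the 1649 bases of Idgf3-RA. The counts assigned to the Idgf3 transcripts did not scale with their length. Of the Idgf2 transcripts, Idgf2-RA has a coding length of 1323 bases and the other 2 of 1107 bases, and they held 35.3%, 34.7% and 30.0% of its reads. The counts were summed per gene for every result above. PPO1, Idgf2 and Idgf6 overlap a gene on the opposite strand (Elk, CG5888 and Pgant9), whose reads were at most 43 in a library, and the authors aligned reads to the sense strand only.

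**Figure D3:**
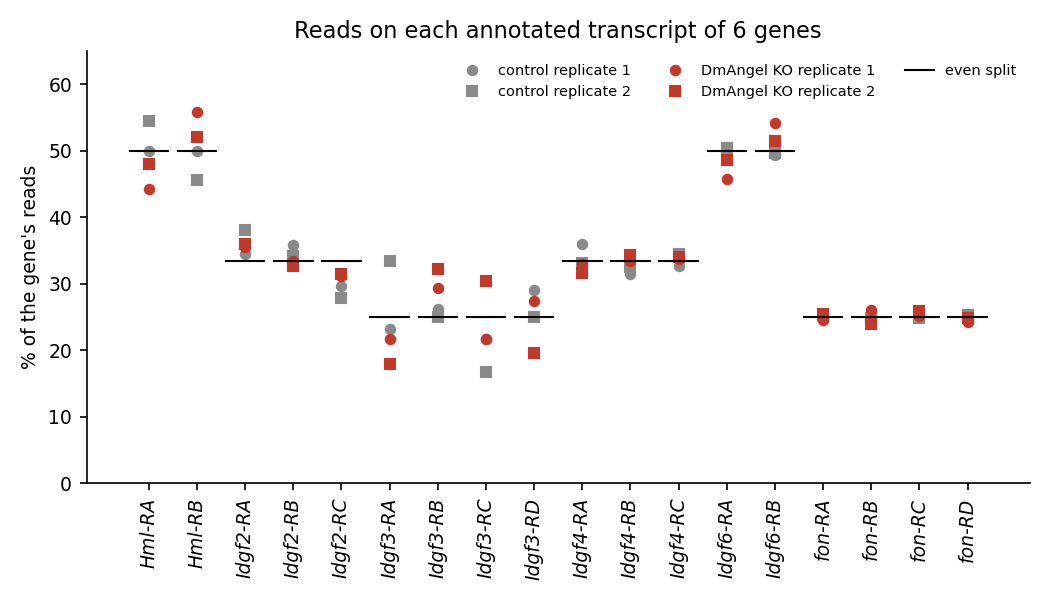
Percent of the reads of each gene that lay on each of its annotated transcripts, for the 6 genes with more than 1 transcript (grey control, red DmAngel KO, circles replicate 1, squares replicate 2); black lines mark an even split. The points of fon stay between 23.9% and 26.1%, and the widest scatter is that of Idgf3, which had the fewest reads of these genes.

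Other genes of clotting and melanization were listed by their known roles. Of 6 clotting genes, 4 were tested and edgeR called 0, with 1 lower and 0 higher at an unadjusted p under 0.05 and 0 calls by DESeq2. Their median log2 fold change was -0.25. The 3 most read were apolpp, which encodes the lipid carrier lipophorin (log2 fold change 0.15), Tig, which encodes the matrix protein tiggrin (-1.01, adjusted p = 0.119, edgeR), and Glt, which encodes glutactin (0.13). The transglutaminase gene Tg, whose enzyme cross-links the clot, had 13 reads in all and was not tested. Of 12 melanization genes, 11 were matched and 7 tested, and 1 was called lower and 0 higher. The called gene was yellow-f2, which encodes a dopachrome conversion enzyme, with 77 and 17 reads in control against 17 and 12 in DmAngel KO. Its log2 fold change was -1.57 (edgeR, adjusted p = 0.0392). DESeq2 called 0 genes of this list. At an unadjusted p under 0.05 in edgeR, 2 of its genes were lower (yellow-f2 and the serpin gene Spn27A) and 0 higher. The log2 fold change of Spn27A was -1.20 (adjusted p = 0.0829, edgeR), and the median of the list was -0.22. Hayan, which encodes a clip protease that cleaves prophenoloxidase, had a log2 fold change of -0.22, MP1, another protease of this cascade, 0.16, and the serpin gene Spn77Ba 0.32.

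Of 12 other genes of the imaginal disc growth factor and chitinase family, 8 were tested, 1 was called lower and 0 higher, with a median log2 fold change of -0.64. The called gene was Cht4, a chitinase gene, with 565 and 99 reads in control against 27 and 13 in DmAngel KO. Cht4 had a log2 fold change of -3.84 (edgeR, adjusted p = 0.000284). Among those not called, the most read were Cht6 (-0.57), Cht9 (-0.72) and Idgf5 (-1.04, adjusted p = 0.0812, edgeR). Of 10 genes of other secreted growth factors and their binding proteins, 3 were tested. ImpL2, which encodes an insulin-binding protein, rose from 33 and 10 reads in control to 58 and 51 in DmAngel KO, a log2 fold change of 1.39 (edgeR, adjusted p = 0.0426). Adgf-D, an adenosine deaminase gene, fell from 67 and 15 reads to 5 and 10 (-2.29, adjusted p = 0.0143, edgeR). The third, Adgf-A, had a log2 fold change of -0.65. DESeq2 called Cht4 and Adgf-D, both lower, and no other gene of these lists.

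Markers of the cells that make these proteins were read beside them. Of 8 plasmatocyte markers 6 were tested, and with TMM factors all 6 had a log2 fold change below 0 (median -0.70). Over all genes tested, 1516 of 3003 were above 0. For these markers edgeR and DESeq2 each called 0, with 0 at an unadjusted p under 0.05. In RPM the sums of the 8 markers overlapped, at 451 and 558 in control against 445 and 589 in DmAngel KO. The most read were Pxn (-0.42), eater (-1.05) and NimC1 (-0.64). The 4 crystal cell markers summed to 34.7 and 32.8 RPM in control against 68.8 and 77.2 in DmAngel KO. In RPM the typical gene was also higher in DmAngel KO. In the fit with TMM factors the 2 crystal cell markers tested had log2 fold changes of 0.73 (peb, adjusted p = 0.344, edgeR) and 0.37 (CG17109, adjusted p = 0.668, edgeR), and DESeq2 called neither. The crystal cell factor gene lz had 5 reads in all. The 4 lamellocyte markers, of a hemocyte that appears after wasp attack, summed to 162 and 195 RPM in control against 291 and 361 in DmAngel KO. Of these sums cher, which is not restricted to hemocytes, gave the most, and its log2 fold change was 0.20. PPO3, the lamellocyte prophenoloxidase gene, had 33 and 3 reads in control against 8 and 3 in DmAngel KO. For atilla there were 11 and 6 reads in control against 5 and 22 in DmAngel KO, and for ItgaPS4 0 and 0 against 5 and 10. PPO3, atilla and ItgaPS4 did not pass the filter on low counts and were not tested. The part of hemocyte number in the values of Hml, PPO1 and PPO2 was not tested.

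Other tissues differed as well. The 5 glue protein markers of the salivary gland, which mark late third-instar larvae, summed to 170 and 328 RPM in control against 1.76 and 0 RPM in DmAngel KO, where they had 1 read in all. Of the cuticle markers tested, edgeR called 2 of 5 lower and DESeq2 4 of 5. Of the midgut markers both tools called 2 of 6 lower, and neither called any of these higher. For the 6 muscle markers and the 2 neuron markers tested edgeR and DESeq2 each called 0, and at an unadjusted p under 0.05 1 muscle marker was higher and 1 neuron marker lower. Developmental stage and genotype cannot be told apart in these libraries, and the part of stage in the values of the 8 genes was not tested.

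**Figure D4:**
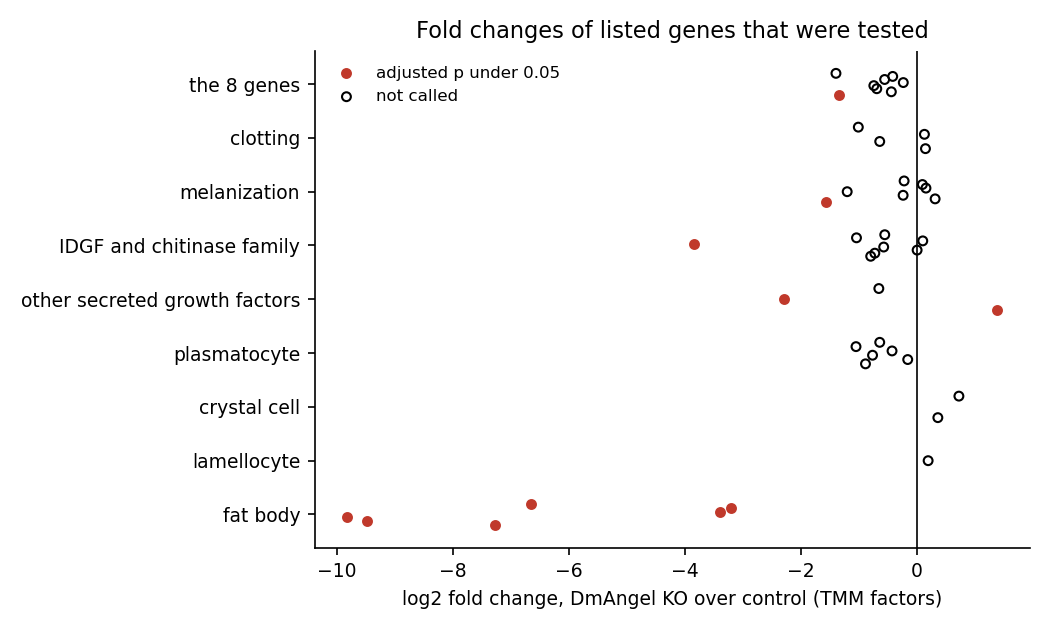
Log2 fold changes (DmAngel KO over control, TMM factors) of the 8 genes and of the tested genes of 8 lists; filled red points passed an adjusted p of 0.05 in edgeR and open points did not. The 6 fat body markers lie between -9.82 and -3.20, whereas the 8 genes lie between -1.39 and -0.23.

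The genes with a profile most like the median of the 8 were sought by the Euclidean distance of log2 scaled levels, centred over the 4 libraries. The 5 nearest of the other tested genes were CG3961, Mtpbeta, CG42586, spirit and Tmem63, at distances of 0.101 to 0.114. With 4 libraries this likeness is a description only. Most of them had few reads, for example 40, 10, 15 and 11 for spirit, a protease gene of the Toll pathway. CG42586, with 2146 and 578 reads in control against 928 and 691 in DmAngel KO, was the exception.

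**Figure D5:**
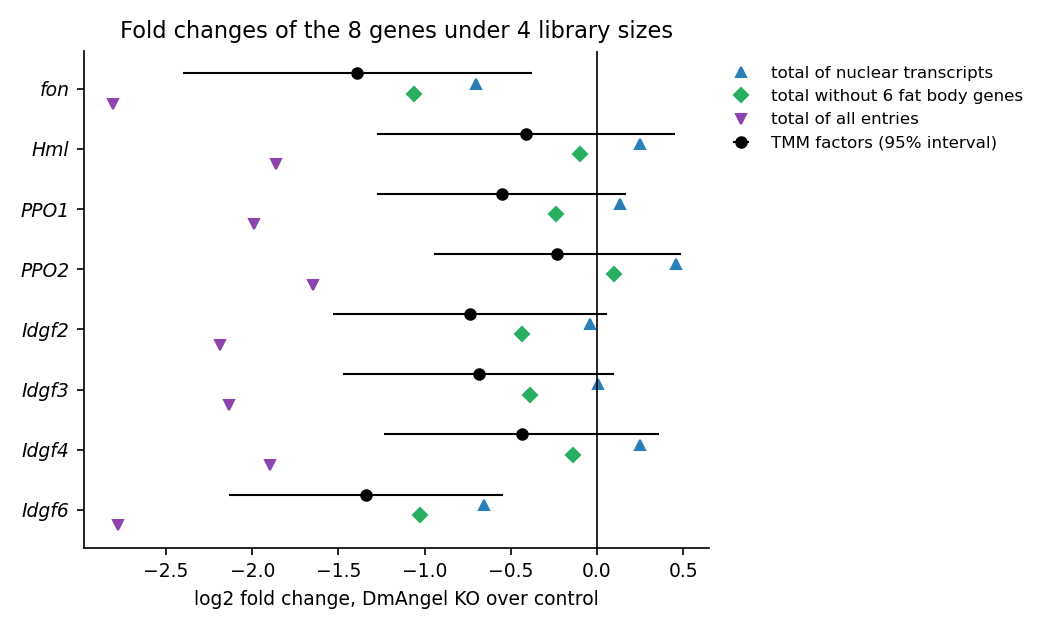
Log2 fold changes of the 8 genes, DmAngel KO over control, under 4 library sizes; black circles are the fit with TMM factors, with 95% intervals, and coloured symbols the other library sizes. The interval of Idgf6 runs from -2.14 to -0.54 and that of fon from -2.40 to -0.38, and PPO2 moves from -0.23 to 0.46 without TMM factors.

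The scaling set the size of each value and, for 5 genes, its sign. With the 6 fat body genes left out of the library size, a choice made after seeing the data, the log2 fold changes were -1.06 for fon and -1.03 for Idgf6, and neither passed the threshold (adjusted p = 0.194 and 0.153, edgeR). Hml was then at -0.10, PPO1 at -0.24, PPO2 at 0.10, and Idgf4 at -0.14. With all reads as the library size, mitochondrial transcripts included, all 8 genes were called lower, as were 2672 of 4247 genes tested. Relative to the median of all genes in the same fit, fon lay at -1.60 to -1.02 and Idgf6 at -1.59 to -0.97 on the log2 scale in every fit that was run. PPO2 ranged from -0.47 to 0.14.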

How the data were processed

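Mitoribosome profiling libraries of 2 control and 2 DmAngel KO samples were analysed, grouped by sample title. The authors merged read pairs, trimmed linkers, removed reads aligning to non-coding RNA, aligned the rest with Bowtie2 to the sense strand of fly transcripts, and deposited raw counts for each of 34917 entries, without normalisation. Of the 34882 nuclear entries, 34713 were matched by identifier to Ensembl BDGP6.54, which gave symbols, lengths and coordinates. The labels name build BDGP6, and the files hold no coordinates. How reads were divided between isoforms or paralogs is not given in the sources used here. Mitochondrial entries were not analysed here beyond their read totals, and Punch, 1 of the 12 melanization symbols, matched no entry.

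Counts were summed per gene, filtered with filterByExpr and tested with edgeR 4.0.16 in R 4.3.3 (glmQLFit, glmQLFTest, TMM factors, no replicate block, Benjamini-Hochberg adjustment over 3003 genes, threshold 0.05). Standard errors were the log2 fold change over the square root of the F statistic, with 95% intervals from its degrees of freedom. DESeq2 1.42.0, other library sizes and filters, a replicate block, single entries and leaving out each library were alternatives. Depth ranged from 457054 to 1324943 nuclear reads, and single libraries have 95% Poisson or Wilson intervals. The public description speaks of technical replicates and the paper of biologically independent samples, so p-values measure the spread between libraries, which may be technical. Nuclear rRNA entries held 2.05% to 4.08% of the nuclear reads. The 8 genes and the lists were chosen with earlier results of these data known. The 8 genes are all named. Of a list, the genes named were taken from those past the threshold and the 3 most read others. Tg, lz, Idgf1, ItgaPS4 and Spn27A were named in addition.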

Additional observations from a re-analysis of the deposited data

How the results depend on the processing

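The number of the 8 genes called lower was 1, and 0 without TMM factors, with every gene that had at least 1 read, with genes of a mean of at least 50 reads, with the most read transcript entry of each gene and with a library size that excluded the fat body genes. This number was 8 with the library size of all entries, 2 with DESeq2, 2 with the replicate block and 0 to 4 when a library was left out. No setting that was run called any of the 8 higher. Over all genes, 125 were higher and 210 lower. The counts were 735 and 117 without TMM factors, 31 and 2672 when all entries set the library size, 78 and 100 with a mean of at least 50 reads, 251 and 377 with the replicate block, and 194 and 121 with the fat body genes left out, and DESeq2 called 70 higher. Higher genes made up 37.3% of the calls, 86.3% without TMM factors, 1.15% with all entries, 28.6% with DESeq2 and 61.6% with the fat body genes left out. Leaving out a library gave 92 to 175 higher and 119 to 436 lower. Log2 fold changes that changed sign without TMM factors were those of Hml (0.25), PPO1 (0.13), PPO2 (0.46), Idgf3 (0.0062) and Idgf4 (0.25), and PPO2 was also above 0 with a mean of at least 50 reads (0.092) and with the fat body genes left out (0.10). The ratio of fon to Idgf6 changed from -0.05 to between -0.15 and 0.038 without single libraries. The paper speaks of a pair of independent experiments and of control and knockout samples handled side by side, but does not say which libraries share an experiment, and over all genes the replicate differences of control and DmAngel KO correlated at 0.19. The block gave fon -1.39 (adjusted p = 2.12e-06, edgeR) and Idgf6 -1.34 (adjusted p = 3.84e-05, edgeR). Groups of 2 libraries limit every test, and PPO1 and PPO2 rest on at most 195 reads in a library.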
